A study of Homo sapiens with 26 samples.

Results

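Transcripts of LYVE1, STAB1, CD163, CD163L1, MRC1, FOLR2, TIMD4 and SEPP1, genes used to mark resident macrophages of the heart, were followed in macrophages and cardiomyocytes from engineered human cardiac tissue. The 8 genes were taken by their symbols, and each had 1 row in each of the 3 count tables, which list 19206 genes for Biowire macrophages, 18771 for digested control macrophages and 21991 for cardiomyocytes. Biowires are small cardiac tissues grown from human embryonic stem cell (hESC) derivatives. Their macrophages (MF) came from the hES2 line and their cardiomyocytes (CM) from the ESI17 line, both wild type. FB cells, read here as fibroblasts although the labels do not spell the letters out, were the remaining component. Day 14 Biowires of 3 makeups (MF alone, FB+MF and CM+FB+MF) each gave 3 libraries of sorted macrophages. Another 3 libraries per makeup came from control macrophages, which the labels call digested cells and for which they give 40 min of digestion but no culture time. The remaining 8 libraries are of cardiomyocytes sorted from day 3 Biowires, 4 from CM+FB and 4 from CM+FB+MF tissues. Each cell type came from a single line, the macrophages are stem cell products and not heart-derived cells, and nothing states that replicates were separate cultures. The p-values therefore rest on a spread between libraries that may be technical.

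Resident macrophages of the heart are seeded in part before birth and renew themselves locally. In the mouse heart they are recognised by LYVE1, FOLR2 and TIMD4 and by the absence of the monocyte receptor CCR2. The products of the 8 genes take up material: LYVE1 binds hyaluronan, STAB1 is a scavenger receptor that also recognises phosphatidylserine on dying cells, CD163 captures haemoglobin bound to haptoglobin, CD163L1 is its paralogue, MRC1 binds mannose-rich glycoproteins, FOLR2 binds folate and TIMD4 binds phosphatidylserine. SEPP1 differs, as it encodes selenoprotein P, a secreted carrier of selenium.

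Macrophage libraries held 6983800 to 13665322 counts and cardiomyocyte libraries 12604684 to 30936910 counts, which put the 8 genes at between 0 and 44326 counts in a library. Levels are CPM, counts scaled to the library total, and are compared between libraries for 1 gene, not between genes, because they are not scaled to length. Of 15 macrophage markers, all were above 1 CPM on average in all 6 macrophage groups, with summed levels of 9476 to 15497 CPM, and CD163 and MRC1 are among these markers. CCR2 had 2, 6 and 1 counts over the 3 libraries of Biowire MF, FB+MF and CM+FB+MF macrophages. Markers of 2 other cell types moved with the groups. Cardiomyocyte markers (17 of 18 listed in the Biowire table) reached a sum of 1246 to 2957 CPM in macrophages of Biowire CM+FB+MF and of 24.3 to 78.8 CPM in the other 2 Biowire groups, where 15 of the 17 were under 1 CPM. Fibroblast markers summed to 403 to 486 CPM in Biowire CM+FB+MF, 670.1 to 765 in FB+MF and 527 to 648 in MF macrophages. Endothelial cells also make LYVE1 and STAB1. Endothelial markers other than PECAM1, which macrophages share, averaged 21.3 to 29.1 CPM in sum in the Biowire groups, with CDH5, FLT4 and TEK each under 1 CPM. Of 5 tested endothelial markers 1 rose and 3 fell in CM+FB+MF against MF, beside 17.8% of all genes higher and 19.8% lower. PECAM1 was among the falls (-0.58 ± 0.10 on the log2 scale), and so few genes are not read as a result about the list. FLT1, a receptor for vascular growth factors, was highest in Biowire CM+FB+MF at 19.4 ± 4.87 CPM, against 3.11 ± 0.588 in FB+MF and 1.02 ± 0.716 in MF (SD, n = 3), with a log2 fold change of 4.19 ± 0.45 in CM+FB+MF against MF (edgeR adjusted p = 7.33e-06). VWF and KDR fell there (-2.52 ± 0.50 and -2.15 ± 0.64). Cardiomyocytes of CM+FB Biowires held FLT1 at 105.4 ± 8.32 CPM (n = 4), and the part of other cell types in the LYVE1 and STAB1 values was not tested.

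In day 14 Biowires 6 of the 8 resident genes had their lowest mean in macrophages kept alone and were higher when cardiomyocytes and fibroblasts were present, while SEPP1 and TIMD4 had their highest mean in macrophages kept alone. STAB1 was 135-fold and LYVE1 87.3-fold higher in CM+FB+MF than in MF macrophages, CD163L1 10.4-fold, MRC1 2.92-fold, FOLR2 2.28-fold and CD163 2.13-fold, while SEPP1 fell and TIMD4 did not pass the test (edgeR quasi-likelihood test, Benjamini-Hochberg adjusted p under 0.05). Thus 6 rose and 1 fell of 8, beside 17.8% of all 13952 tested genes higher and 19.8% lower, 37.6% in all. With fibroblasts alone added, 4 rose (STAB1, LYVE1, CD163 and MRC1) and the other 4 did not pass, beside 4.03% of all genes higher, 2.14% lower and 6.16% called in either direction. Between CM+FB+MF and FB+MF, 5 rose and 1 fell, beside 16.4% higher and 19.1% lower (35.5% in all). The median log2 fold change of the 8 genes was 1.37 in CM+FB+MF against MF, 0.41 in FB+MF against MF and 0.98 in CM+FB+MF against FB+MF, where the medians of all genes lay between -0.01 and 0.00. These 3 comparisons share libraries and are not independent of each other. In sorted bulk RNA, fewer cells of a type and less RNA per cell cannot be told apart.

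**Figure D1:**
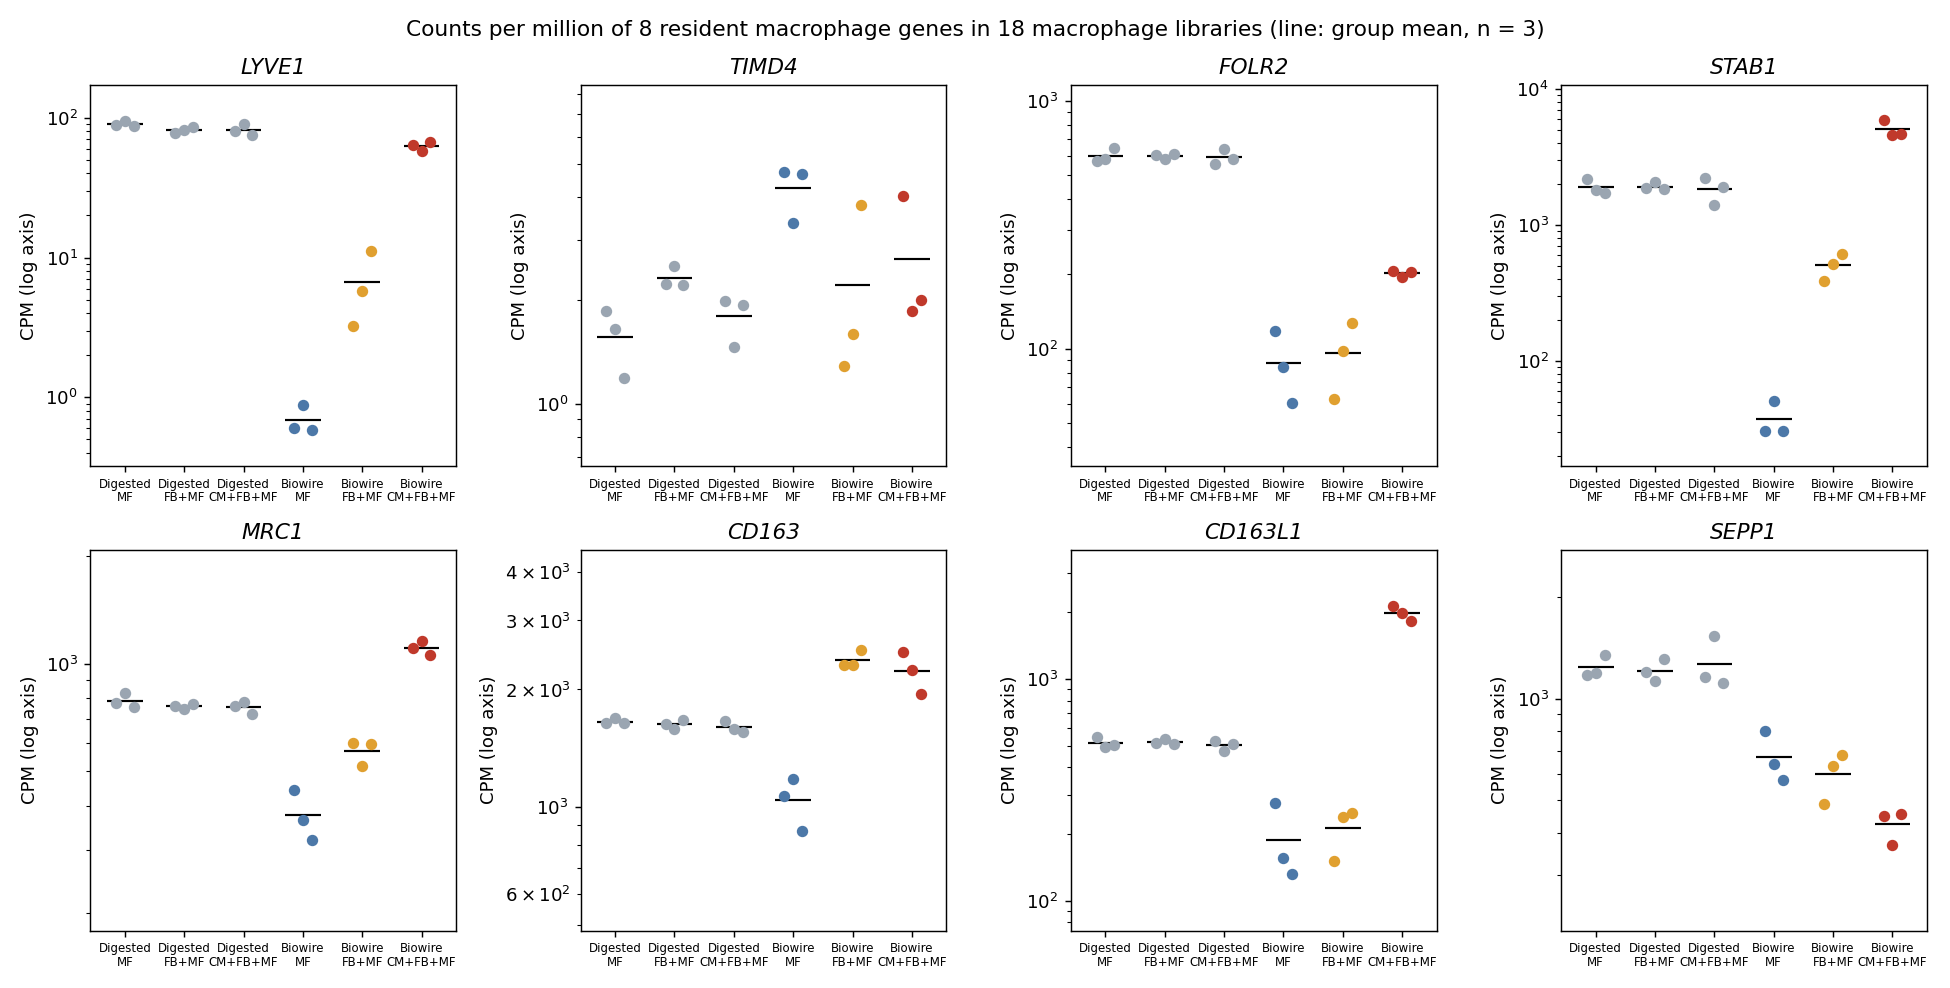
CPM on log axes of the 8 genes in the 18 macrophage libraries, 1 point per library and a line at each group mean (n = 3); digested controls are grey and Biowire groups coloured. The digested groups lie level with each other for each gene except for small shifts of LYVE1 and TIMD4, while Biowire LYVE1 climbs from 0.689 CPM in MF to 63.0 in CM+FB+MF.

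LYVE1, the hyaluronan receptor, was close to the detection limit in Biowire macrophages kept alone. Its levels in MF replicates 1 to 3 were 0.605, 0.878 and 0.583 CPM, from 23 counts in all. In FB+MF they were 3.22, 5.81 and 11.2 CPM, and in CM+FB+MF 64.1, 57.9 and 66.9 CPM. No library of one Biowire group overlapped another, and FB+MF libraries were the most spread. The log2 fold change was 3.25 ± 0.44 (SE) in FB+MF against MF (edgeR adjusted p = 0.000417), 6.45 ± 0.41 in CM+FB+MF against MF (adjusted p = 5.17e-08) and 3.19 ± 0.31 in CM+FB+MF against FB+MF (adjusted p = 4.59e-06).

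STAB1, which encodes the scavenger receptor stabilin-1, followed the same order over a similar span. Biowire MF libraries held 30.6, 50.9 and 30.9 CPM, FB+MF libraries 390.3, 520.2 and 615 CPM, and CM+FB+MF libraries 5971, 4609 and 4702 CPM. The 3 groups were again fully separate. Fold changes were 3.79 ± 0.22 on the log2 scale for FB+MF against MF (adjusted p = 3.12e-07), 7.08 ± 0.26 for CM+FB+MF against MF (adjusted p = 5e-10) and 3.29 ± 0.21 for CM+FB+MF against FB+MF (adjusted p = 1.35e-07). By edgeR p-value STAB1 ranked 7 of 13952 genes in the first of these comparisons and 8 in the second. In day 3 cardiomyocytes from CM+FB Biowires STAB1 was 1.25 ± 1.02 and LYVE1 0.0440 ± 0.0337 CPM (SD, n = 4), both below their levels in every Biowire macrophage library.

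CD163 and its paralogue CD163L1 are given side by side. CD163 stood at 1069, 1185 and 873 CPM in Biowire MF, at 2311, 2308 and 2527 CPM in FB+MF and at 2490.1, 2246 and 1949.5 CPM in CM+FB+MF libraries. Every library with fibroblasts lay above every MF library, and FB+MF and CM+FB+MF overlapped. CD163 rose by 1.22 ± 0.13 on the log2 scale with fibroblasts (edgeR adjusted p = 7.94e-05) and by 1.09 ± 0.13 in CM+FB+MF against MF (adjusted p = 2.51e-05). Between CM+FB+MF and FB+MF its difference was -0.13 ± 0.13, with a 95% interval of -0.42 to 0.15 (adjusted p = 0.474).

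CD163L1 was 276, 156 and 132 CPM in MF, 151, 239 and 249 CPM in FB+MF, and 2128, 1988 and 1828 CPM in CM+FB+MF libraries. MF and FB+MF libraries overlapped, whereas each CM+FB+MF library was far above both. The difference between FB+MF and MF was 0.20 ± 0.25 on the log2 scale, with a 95% interval of -0.33 to 0.73 (adjusted p = 0.763). CD163L1 rose by 3.38 ± 0.27 in CM+FB+MF against MF (adjusted p = 3.89e-07) and by 3.18 ± 0.27 against FB+MF (adjusted p = 1.1e-06). Whether CD163 and CD163L1 differ from each other in response was not tested.

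RefSeq promoter windows on GRCh38.p14 matched 5 of the 8 genes (STAB1, CD163, CD163L1, TIMD4 and SEPP1, listed there as SELENOP). The 250 bases before the annotated start are shown for STAB1, the gene with the largest rise, and for CD163 and its paralogue. They lie at chr3:52495088-52495337 (plus strand) for STAB1, chr12:7503778-7504027 (minus strand) for CD163 and chr12:7444154-7444403 (minus strand) for CD163L1, and each is written 5′ to 3′ in the direction of its gene. Capitals mark GAGGAA, the core bound by the macrophage factor PU.1, TGCTGA, a half-site of MAF factors, the reverse complement of either, and AATGACTTCCC, the longest run that CD163 and CD163L1 share.
STAB1: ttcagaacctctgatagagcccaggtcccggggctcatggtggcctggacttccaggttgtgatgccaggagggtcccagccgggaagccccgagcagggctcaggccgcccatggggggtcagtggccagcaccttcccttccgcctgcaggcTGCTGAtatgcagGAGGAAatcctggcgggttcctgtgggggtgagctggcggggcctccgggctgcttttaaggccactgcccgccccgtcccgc
CD163: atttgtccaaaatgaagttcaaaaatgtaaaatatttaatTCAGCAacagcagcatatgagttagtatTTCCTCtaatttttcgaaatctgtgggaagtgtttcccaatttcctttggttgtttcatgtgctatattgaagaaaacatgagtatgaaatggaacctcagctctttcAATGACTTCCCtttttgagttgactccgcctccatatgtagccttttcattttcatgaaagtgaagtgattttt
CD163L1: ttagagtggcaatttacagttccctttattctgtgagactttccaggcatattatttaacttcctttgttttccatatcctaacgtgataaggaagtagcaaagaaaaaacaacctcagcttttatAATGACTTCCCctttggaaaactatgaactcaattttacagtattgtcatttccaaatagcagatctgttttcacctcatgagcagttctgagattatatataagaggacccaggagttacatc
STAB1 held TGCTGA 96 and GAGGAA 83 bases before its start, and CD163 held the reverse complements of TGCTGA at 210 and of GAGGAA at 182 bases. CD163L1 and SEPP1 held neither, and TIMD4 held TGCTGA on the reverse strand at 152 and 46 bases. On either strand GAGGAA occurred in 23.6%, TGCTGA in 14% and both in 3.37% of 35116 promoter windows of the same length. The 11 bases shared by the pair begin 74 bases before the start of CD163 and 124 before that of CD163L1. On either strand 6 of the 35116 windows hold them (0.0171%), the pair's own included. The run was picked because the pair shares it, so this share is no test of it. A match of letters is a description of these windows and not evidence of binding.

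MRC1, the mannose receptor CD206, rose in a graded way but over a small range. MF libraries held 444, 363 and 321 CPM, FB+MF libraries 598, 516 and 595 CPM, and CM+FB+MF libraries 1107, 1159 and 1056 CPM, with no overlap between groups. MRC1 rose by 0.63 ± 0.13 on the log2 scale in FB+MF against MF (edgeR adjusted p = 0.0108), by 1.55 ± 0.13 in CM+FB+MF against MF (adjusted p = 9.26e-07) and by 0.92 ± 0.13 in CM+FB+MF against FB+MF (adjusted p = 0.000132). The rise with fibroblasts alone lost its call without FB+MF replicate 3 (adjusted p = 0.0507), MF replicate 2 (0.0573) or MF replicate 3 (0.0569). The hg19 build carries a near-identical copy of the MRC1 locus that has no row in the tables, so the MRC1 level is uncertain if reads matching both copies were dropped.

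FOLR2, folate receptor beta, passed the test in the comparisons that add cardiomyocytes. Libraries held 117, 84.1 and 60.6 CPM in MF, 62.8, 97.9 and 127 CPM in FB+MF, and 205, 194 and 204 CPM in CM+FB+MF. MF and FB+MF overlapped throughout, and all CM+FB+MF libraries were higher. The FB+MF against MF difference was 0.16 ± 0.24 on the log2 scale (95% interval -0.37 to 0.68, edgeR adjusted p = 0.818). FOLR2 rose by 1.19 ± 0.25 in CM+FB+MF against MF (adjusted p = 0.00174) and by 1.03 ± 0.24 against FB+MF (adjusted p = 0.00511).

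TIMD4, the phosphatidylserine receptor TIM-4, was a rare transcript in every library. Its levels were 4.72, 3.37 and 4.66 CPM in MF, 1.29, 1.59 and 3.79 CPM in FB+MF, and 4.04, 1.87 and 2.00 CPM in CM+FB+MF Biowires. The 3 groups overlapped, through FB+MF replicate 3 and CM+FB+MF replicate 1. Its log2 difference was -0.90 ± 0.53 for FB+MF against MF (95% interval -2.04 to 0.23, edgeR adjusted p = 0.421). For CM+FB+MF against MF it was -0.68 ± 0.53 (-1.83 to 0.47, adjusted p = 0.345). Both intervals reach beyond a 2-fold fall.

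SEPP1, the selenium carrier, was the only one of the 8 genes to pass the test as lower in the Biowire comparisons. It stood at 801, 642 and 573 CPM in MF, 488, 631 and 682 CPM in FB+MF, and 449, 369 and 455 CPM in CM+FB+MF libraries. All CM+FB+MF libraries lay below all others, while MF and FB+MF overlapped. SEPP1 fell by 0.67 ± 0.16 on the log2 scale in CM+FB+MF against MF (edgeR adjusted p = 0.00379) and by 0.54 ± 0.16 against FB+MF (adjusted p = 0.0163), and its FB+MF against MF difference was -0.14 ± 0.15 (adjusted p = 0.732). The fall against FB+MF lost its call without CM+FB+MF replicate 2 (adjusted p = 0.0771), FB+MF replicate 2 (0.0543) or FB+MF replicate 3 (0.0707).

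The rises in CM+FB+MF macrophages came in libraries that also held cardiomyocyte transcripts. In CM+FB cardiomyocytes of day 3 the level of each of the 8 genes was at most 2.17% of its level in day 14 Biowire CM+FB+MF macrophages. For STAB1 it was 0.0245%. The days differ, and the part of cardiomyocyte RNA in the rises was not tested. The summed macrophage markers, which include CD163 and MRC1 of the 8 genes, rose with the group too. They went from 10229 ± 655 CPM in MF through 13399 ± 541 with fibroblasts to 14998 ± 557 in CM+FB+MF (SD, n = 3). Without CD68, the most abundant marker, the sums were 4217 ± 347, 7055 ± 212 and 10965 ± 417 CPM. These sums hold part of the rises themselves, so they are no separate measure of macrophage content. The part of that shift in the results was not tested.

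The digested controls put the same cell mixtures through sorting with a 40 min digestion and no labelled culture. There the genes other than TIMD4 hardly varied with tissue makeup. None of the 8 passed in any of the 3 comparisons by edgeR (adjusted p from 0.930 to 1), and none had an unadjusted p under 0.05 or passed by DESeq2. Over all 12960 genes 1.6% were called in FB+MF against MF, 2.69% in CM+FB+MF against MF and 0.239% in CM+FB+MF against FB+MF, with 672, 826 and 321 genes at an unadjusted p under 0.05. STAB1 was 2173, 1823 and 1736 CPM in digested MF, 1869, 2067 and 1832 in FB+MF and 2209, 1406 and 1898 in CM+FB+MF. LYVE1 was 89.4, 95.4 and 87.0 CPM in MF, 77.5, 82.2 and 86.1 in FB+MF and 80.1, 89.9 and 75.0 in CM+FB+MF. STAB1 groups overlapped fully, and LYVE1 was lower in every FB+MF than in every MF library, by -0.15 ± 0.08 on the log2 scale (95% interval -0.33 to 0.02, edgeR adjusted p = 1). Without digested CM+FB+MF library 2, LYVE1 passed in CM+FB+MF against MF (-0.25, adjusted p = 0.0419). Across the 9 digested libraries FOLR2 ranged from 556 to 643 CPM, MRC1 from 724 to 825, CD163 from 1559.9 to 1689.5, CD163L1 from 474 to 546, SEPP1 from 1111 to 1539 and TIMD4 from 1.18 to 2.52 CPM. The rare TIMD4 was higher in every FB+MF than in every MF library, by 0.55 ± 0.26 log2 units (95% interval -0.02 to 1.13). In every CM+FB+MF library it was below every FB+MF library (-0.37 ± 0.26, 95% interval -0.93 to 0.20).

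**Figure D2:**
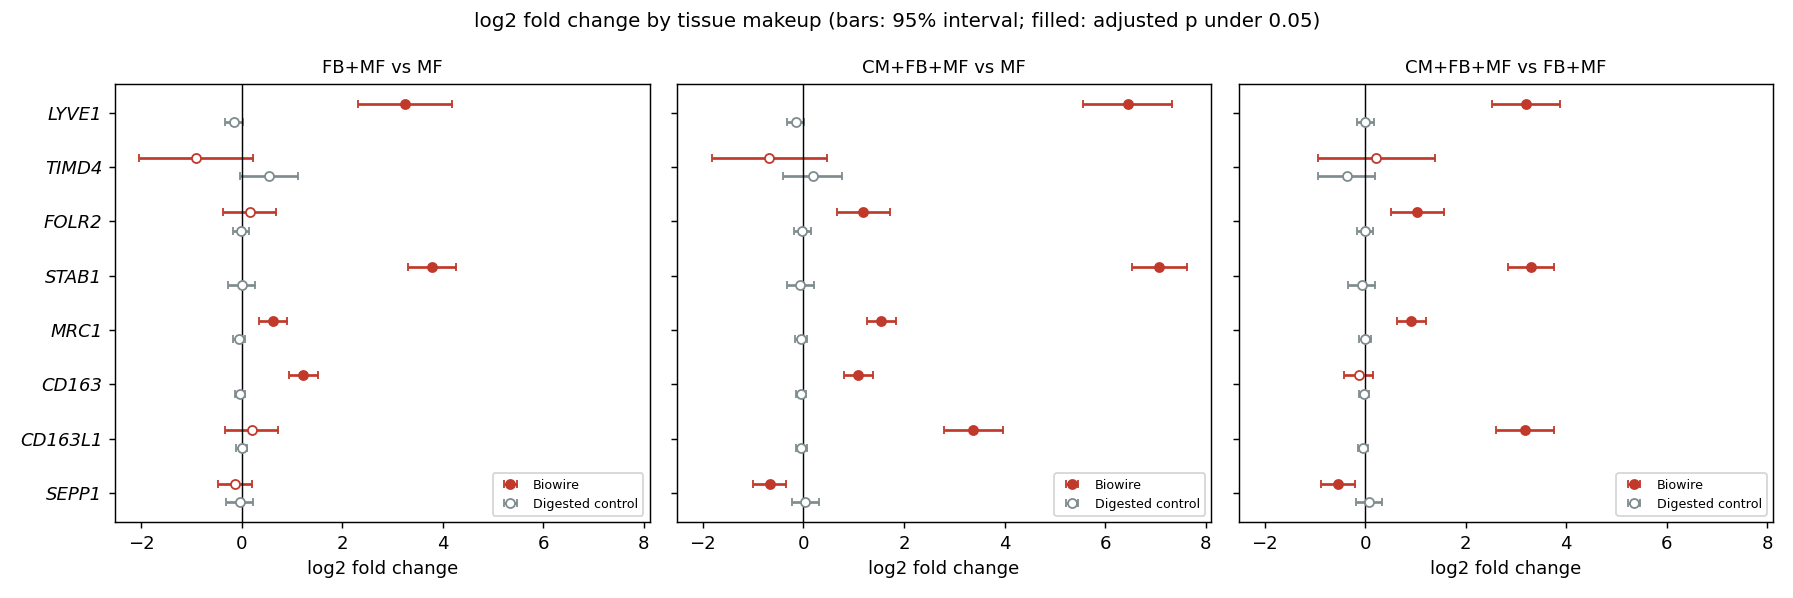
log2 fold change by tissue makeup for the 8 genes, Biowire in red and digested control in grey, with 95% intervals; filled points have an edgeR adjusted p under 0.05. All digested points are open and lie near 0 apart from TIMD4, whereas STAB1 and LYVE1 reach 7.08 and 6.45 in Biowire CM+FB+MF against MF.

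Whether the effect of makeup differed between Biowire and digested macrophages was tested as an interaction in 1 fit of the 18 libraries. For FB+MF against MF it passed for 4 of 8 genes, all more positive in Biowires, beside 2.72% of 14381 genes more positive, 2.12% more negative and 4.84% in all. These were STAB1 (3.79 ± 0.27), LYVE1 (3.40 ± 0.44), CD163 (1.26 ± 0.16) and MRC1 (0.69 ± 0.15). For CM+FB+MF against MF 6 were more positive and 1 more negative, beside 14.4% and 16.8% of genes and 31.2% in all, led by STAB1 (7.15 ± 0.29) and LYVE1 (6.60 ± 0.39). For CM+FB+MF against FB+MF 5 were more positive and SEPP1 more negative, beside 13.2% and 15.1% (28.4% in all). That SEPP1 call (-0.61 ± 0.22, edgeR adjusted p = 0.0421) was lost without any of 8 single libraries (adjusted p 0.0505 to 0.142). The SEPP1 call for CM+FB+MF against MF was lost without CM+FB+MF replicate 2 of the Biowires (adjusted p = 0.0534) or digested CM+FB+MF library 2 (0.0648). For the called genes the digested effects were near 0, so their values repeat the Biowire ones closely. TIMD4 was not called, and for FB+MF against MF its interaction was -1.45 ± 0.59 beside -0.90 ± 0.53 in the Biowires.

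Against digested macrophages of the same makeup, Biowire macrophages kept alone were lower in 7 of the 8 genes, and those from CM+FB+MF tissues were lower in LYVE1, FOLR2 and SEPP1 and higher in STAB1, CD163L1, MRC1 and CD163. Setting and count table differ between these groups, and time in culture is labelled only for the Biowires. The parts of setting, count table and time in culture cannot be told apart. Markers of other cell types also differed. Summed fibroblast markers were 285 ± 12.2 CPM in digested MF, 1521 ± 370 CPM in digested FB+MF and 2069 ± 1345 CPM in digested CM+FB+MF macrophages (SD, n = 3). Of 12 tested, 9 were higher and 1 lower in Biowire than in digested MF, 1 higher and 6 lower in FB+MF, and 1 higher and 9 lower in CM+FB+MF. Of 17 tested cardiomyocyte markers 14 were higher and 1 lower in Biowire than in digested CM+FB+MF, whose sum was 360 ± 102 CPM. The part of these markers in the values of the 8 genes was not tested. In MF, 7 of 8 genes were lower in Biowires and 1 higher, beside 22.8% of 14381 genes lower and 23.2% higher (46% in all). In FB+MF, 6 were lower and 1 higher, beside 24% and 23.1% (47.1% in all), and in CM+FB+MF 3 were lower and 4 higher, beside 26.1% and 24.4% (50.5% in all).

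LYVE1 differed from its digested level by -7.17 ± 0.32 log2 units in MF (edgeR adjusted p = 8.22e-13), by -3.77 ± 0.23 in FB+MF (adjusted p = 7.67e-11) and by -0.57 ± 0.20 in CM+FB+MF (adjusted p = 0.0213). The last call was lost without Biowire CM+FB+MF replicate 2 (adjusted p = 0.0732) or digested CM+FB+MF library 2 (0.0853). The STAB1 difference from the digested controls went from -5.86 ± 0.23 log2 units in MF (adjusted p = 1.3e-13), through -2.07 ± 0.19 in FB+MF (adjusted p = 2.2e-08), to 1.29 ± 0.18 in CM+FB+MF (adjusted p = 8.18e-06). CD163L1 went from -1.64 ± 0.21 in MF (adjusted p = 2.07e-06) and -1.44 ± 0.21 in FB+MF (adjusted p = 9.55e-06) to 1.79 ± 0.21 in CM+FB+MF (adjusted p = 5.85e-07). In CM+FB+MF every Biowire library was above every digested library for STAB1, CD163L1, MRC1 and CD163. Every Biowire library was below every digested one for LYVE1, FOLR2 and SEPP1, and TIMD4 overlapped. The share of all genes without overlap was not computed.

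FOLR2 and SEPP1 stayed below the digested controls in all 3 makeups. FOLR2 differed by -2.97 ± 0.22 log2 units in MF (edgeR adjusted p = 7.75e-10), -2.79 ± 0.21 in FB+MF (adjusted p = 1.73e-09) and -1.75 ± 0.21 in CM+FB+MF (adjusted p = 6.85e-07). SEPP1 differed by -1.07 ± 0.16 (adjusted p = 1.05e-05), -1.17 ± 0.16 (adjusted p = 3.75e-06) and -1.77 ± 0.16 (adjusted p = 1.57e-08). MRC1 was lower in MF (-1.25 ± 0.11) and FB+MF (-0.56 ± 0.11) and higher in CM+FB+MF (0.36 ± 0.11, adjusted p = 0.00912). CD163 was lower in MF (-0.86 ± 0.11) and higher in FB+MF (0.40 ± 0.11, adjusted p = 0.0056) and CM+FB+MF (0.29 ± 0.11, adjusted p = 0.0330), and the CM+FB+MF call was lost without any of 5 single CM+FB+MF libraries (adjusted p 0.0580 to 0.214), Biowire replicate 3 being the exception. TIMD4 was higher in Biowire than in digested MF (1.23 ± 0.42, adjusted p = 0.0208), a call lost without any of 4 single libraries (adjusted p 0.0517 to 0.0841), and did not pass in FB+MF (-0.22 ± 0.42) or CM+FB+MF (0.38 ± 0.43).

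**Figure D3:**
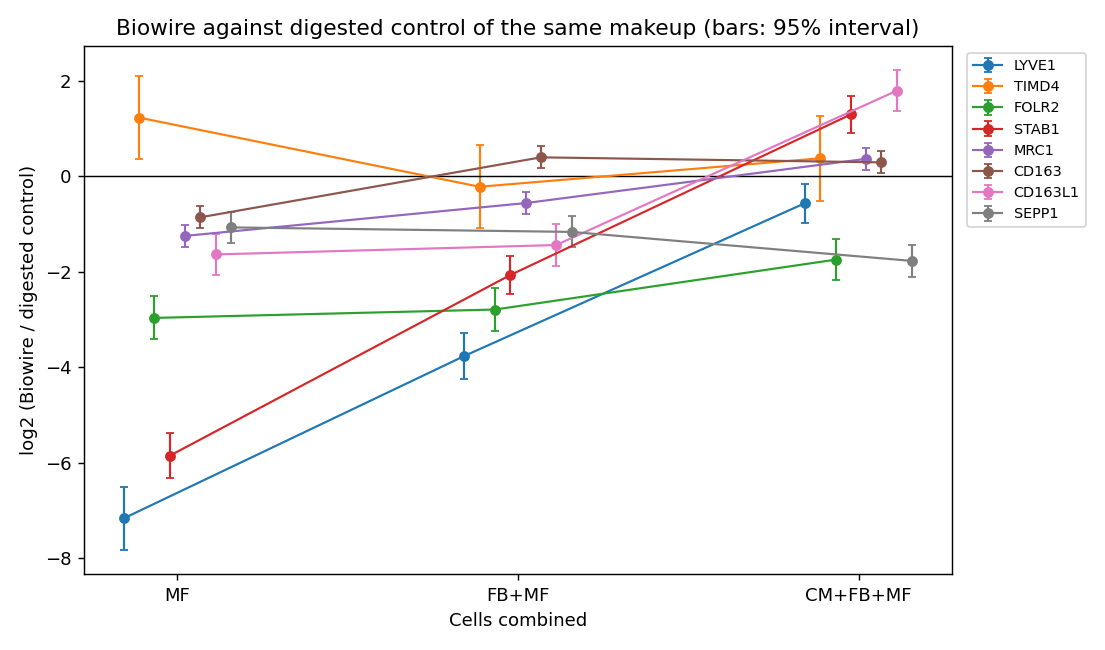
log2 ratio of Biowire to digested macrophages of the same makeup for each gene, with 95% intervals from the fit of 18 libraries; lines join a gene's 3 values and points are shifted sideways for legibility. LYVE1 and STAB1 climb from -7.17 and -5.86 in MF to -0.57 and 1.29 in CM+FB+MF, while FOLR2 and SEPP1 remain below 0 throughout.

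The groups are ordered here by mean level. STAB1, MRC1 and CD163L1 were highest in Biowire CM+FB+MF, followed by the 3 digested groups together, and lowest in Biowire FB+MF and MF, which overlapped for CD163L1. LYVE1 and FOLR2 were highest in the digested groups, then in Biowire CM+FB+MF, FB+MF and MF, the last 2 overlapping for FOLR2. CD163 was highest in Biowire FB+MF and CM+FB+MF together, then in the digested groups, then in Biowire MF. SEPP1 was highest in the digested groups, followed by Biowire MF and FB+MF together and then Biowire CM+FB+MF. For TIMD4 each group overlapped the next in order.

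Genes with related roles, from lists that do not hold the 8, moved in both directions in the Biowires. Of 20 other resident macrophage genes 13 rose and 3 fell in CM+FB+MF against MF (median log2 0.64 against 0.00 for all genes). Beside them 17.8% of all genes were higher and 19.8% lower. In FB+MF against MF 8 rose and 2 fell, beside 4.03% and 2.14%. Between CM+FB+MF and FB+MF 9 rose and 4 fell, beside 16.4% and 19.1%. PLTP, the phospholipid transfer protein, rose by 3.97 ± 0.15 log2 units in CM+FB+MF against MF (edgeR adjusted p = 6.83e-10) and by 2.86 ± 0.14 in FB+MF (adjusted p = 1.02e-07). The chemokine CCL18 fell by 5.04 ± 0.12 in CM+FB+MF against MF (adjusted p = 8.34e-12), from 851 ± 26.1 to 25.9 ± 1.64 CPM. Of 9 tested monocyte-derived macrophage genes 6 rose and 2 fell in CM+FB+MF against MF, beside the same 17.8% and 19.8%. Among them were the calprotectin subunit S100A9 (4.46 ± 0.26) and the glycoprotein CD52 (-3.81 ± 0.22). The summed level of that list was 1213 ± 141 CPM in CM+FB+MF, 607 ± 55.8 in FB+MF and 698 ± 47.0 in MF macrophages (SD, n = 3). Without LYZ the sums were 977 ± 79.2, 256 ± 10.9 and 194 ± 35.8 CPM. The list is not specific to macrophages. In CM+FB cardiomyocytes it summed to 3057 ± 236 CPM, and to 126 ± 21.1 CPM without VCAN (SD, n = 4). The sum was 329 ± 13.4 CPM in digested MF, 530 ± 51.9 in digested FB+MF and 597 ± 173 in digested CM+FB+MF libraries. Without THBS1 these were 309 ± 13.5, 342 ± 11.3 and 358 ± 26.5 CPM. The part of other cell types in the sums was not tested. None of the 20 other resident genes passed in any digested comparison by edgeR.

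Partners of single members were read beside them, and their counts in CM+FB+MF against MF stand against 17.8% of all genes higher, 19.8% lower and 37.6% called in all. None of these counts is read as a result about its list. Hyaluronan genes, the pathway of LYVE1, gave 2 rises and 2 falls of 7 tested in CM+FB+MF against MF. In FB+MF against MF they gave 2 rises, beside 4.03% of all genes higher and 2.14% lower. TMEM2, described as a cell-surface hyaluronidase, rose by 1.67 ± 0.13 and the hyaluronan receptor CD44 by 0.78 ± 0.10 in CM+FB+MF against MF. Phosphatidylserine receptors and bridges, the roles of TIMD4 and STAB1, gave 6 rises and 1 fall of 12 tested in the same comparison. They included the inhibitory receptor CD300A (3.69 ± 0.20) and the engulfment kinase MERTK (1.65 ± 0.11).

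Haemoglobin and haem genes, the pathway of CD163, gave 2 rises and 5 falls of 10 tested in CM+FB+MF against MF. The haem transporter SLC48A1 fell by 2.88 ± 0.15 log2 units and the iron exporter SLC40A1 by 1.93 ± 0.12. Of 12 tested folate genes, the pathway of FOLR2, 1 rose and 5 fell, among them the reduced folate carrier SLC19A1 (-2.22 ± 0.14) and the mitochondrial serine hydroxymethyltransferase SHMT2 (-0.75 ± 0.11). Selenoprotein genes, beside SEPP1, gave 2 rises and 5 falls of 18 tested, with the lipid peroxidase GPX4 (-1.51 ± 0.10) and the selenophosphate synthetase SEPHS2 (-1.75 ± 0.12) lower. Of 6 tested relatives of MRC1 and other lectin receptors 2 rose and 1 fell, with the collagen receptor MRC2 higher (4.12 ± 0.40) and the lectin CD209 lower (-0.67 ± 0.11). MRC2 is also made by fibroblasts, and it was also higher in digested FB+MF (2.15 ± 0.42) and CM+FB+MF (2.39 ± 0.41) than in digested MF macrophages, and its source in these sorted libraries was not tested.

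Genes closest in pattern to each member were found by the root mean square difference of centred log2(CPM + 1) over the 18 macrophage libraries among 14381 genes. TIMD4, below a mean of 5 CPM, was left out. For LYVE1 they were PHLDA1 (0.54), EGR1 (0.71) and IL1B (0.83), and for STAB1 PALD1 (0.78), LYVE1 itself (0.87) and THBD (0.94). For FOLR2 they were ENC1 (0.18), MEF2C (0.24) and PTGS2 (0.25), and for CD163L1 they included GATM (0.29) and ST8SIA4 (0.29). Those of CD163 included CTSL (0.19) and SLCO2B1 (0.20). MRC1 lay nearest to FCGR2A (0.11), RBPJ (0.12) and FAM20C (0.13), and SEPP1 to EIF2S3 (0.15), CD59 (0.15) and SHMT1 (0.16). The 18 points fall into 6 groups and share libraries between genes, so the values describe likeness only. With a pseudocount of 0.1, 1 of the 3 nearest genes remained for LYVE1 and 1 for STAB1, and 2 remained for FOLR2 and 2 for CD163L1, where PTGS2 and ST8SIA4 dropped out.

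Cardiomyocytes sorted on day 3 showed whether the resident transcripts were also found outside the macrophage gate. Of the 8 genes 5 passed the filter on low counts, and 4 of these rose in CM+FB+MF against CM+FB, beside 6.79% of 16046 genes higher, 5.88% lower and 12.7% called in either direction. A gene at low level in CM+FB libraries passes the filter through the CM+FB+MF libraries, so this count gives no support beyond the values. CD163 was 0.0364, 0.0340, 0.389 and 0.183 CPM without macrophages and 1.63, 3.24, 4.65 and 11.3 CPM with them (log2 fold change 4.92 ± 0.71, edgeR adjusted p = 0.000396). STAB1 was 0.218, 0.747, 1.45 and 2.57 against 3.03, 8.09, 9.28 and 13.1 CPM (2.71 ± 0.53, adjusted p = 0.00405). MRC1 was 0.109, 0, 0.177 and 0.257 against 0.783, 0.789, 0.937 and 4.05 CPM (3.47 ± 0.77, adjusted p = 0.00932). In none of these 3 did the groups overlap, though the share of all genes without overlap was not computed. The shallowest library, CM+FB+MF library 4, was highest each time. Without that library the log2 values were 4.23 for CD163 and 2.57 for MRC1, without CM+FB replicate 3 CD163 was 5.82, and without CM+FB replicate 4 STAB1 was 3.33, all still called.

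CD163L1 was already present without macrophages, at 2.40, 3.46, 3.64 and 3.60 CPM, and was 4.94, 6.12, 5.79 and 5.79 CPM with them (0.77 ± 0.17, edgeR adjusted p = 0.0103), again with no overlap. SEPP1 was 10.4, 9.64, 6.79 and 9.94 against 12.6, 10.1, 12.3 and 17.6 CPM and did not pass (0.49 ± 0.18, adjusted p = 0.102), although it did, just, without CM+FB+MF library 2 (0.60). FOLR2 had 0, 0, 1 and 0 counts against 4, 9, 7 and 12 counts, a pooled ratio of 36.6 with a 95% counting interval of 6.12 to 1491. LYVE1 had 2, 2, 1 and 0 counts against 0, 0, 0 and 7, and TIMD4 had 5 counts, all in 1 library, against 0, which allows up to 0.0305 CPM. These ratios and limits cover counting error only. Summed macrophage markers were 7.95 ± 0.704 CPM without and 41.3 ± 14.3 CPM with macrophages (SD, n = 4), and 11 of the 15 were tested. All 11 rose, but 12 of the 15 averaged under 1 CPM without macrophages, so such markers pass the low-count filter through the libraries with macrophages and the count gives no support. The members reached 0.148% to 3.10% of their level in Biowire CM+FB+MF macrophages, TIMD4 at 0 apart, and the part of macrophage RNA in these values was not tested.

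**Figure D4:**
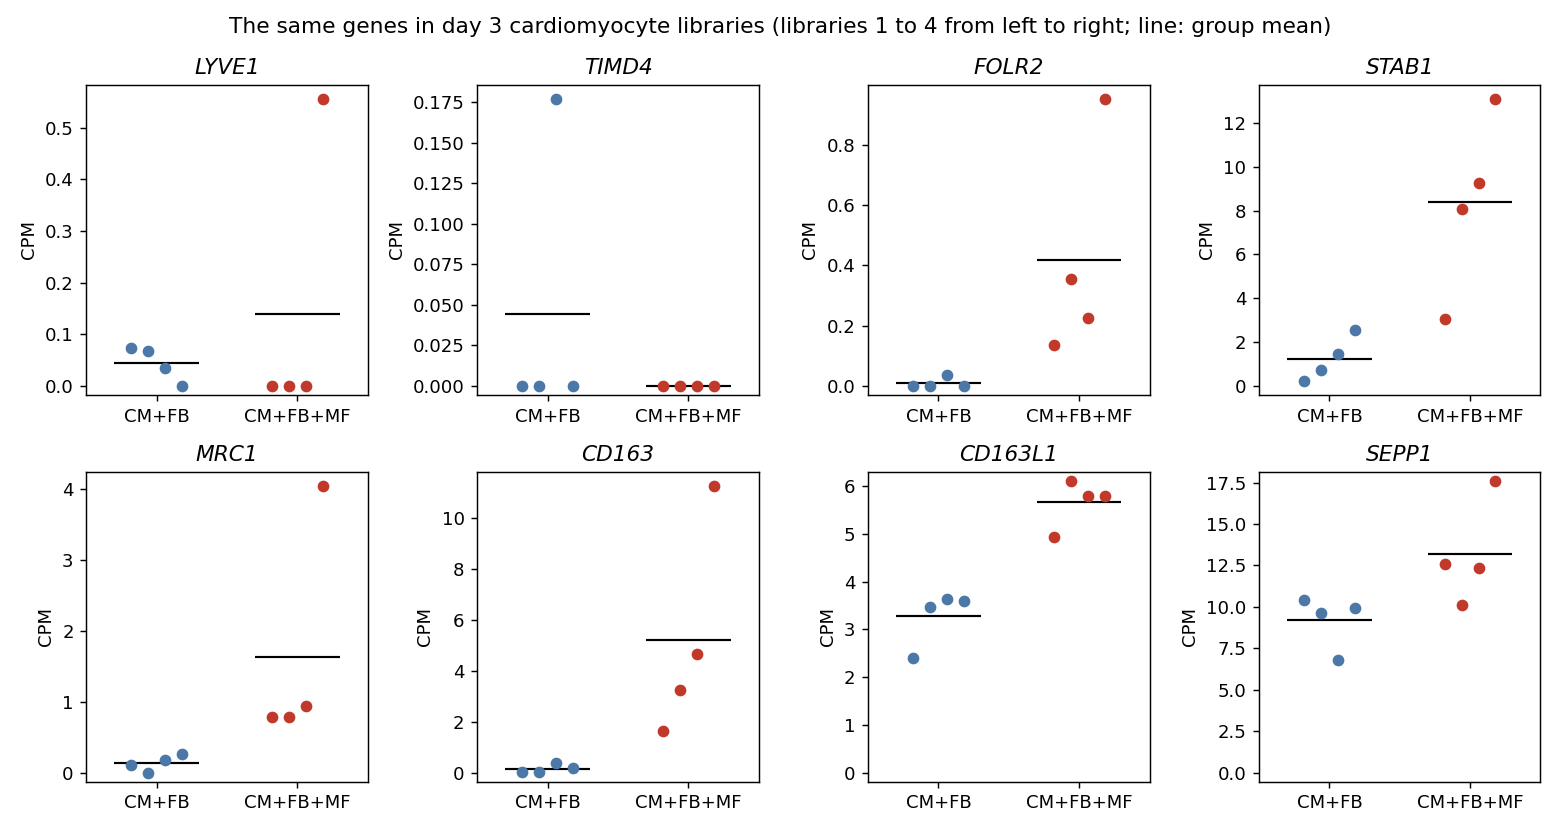
CPM of the 8 genes in day 3 cardiomyocyte libraries, libraries 1 to 4 from left to right in each group, with a line at the group mean (n = 4) and a separate linear axis for each gene. STAB1, MRC1, CD163, CD163L1 and FOLR2 do not overlap between the groups, FOLR2 with 1 count in all in CM+FB, and LYVE1 has counts in 4 libraries and TIMD4 in 1. The share of all genes without overlap was not computed.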

How the data were processed

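RNA was measured in 26 libraries of 8 groups, prepared with a stranded total RNA kit after digestion and sorting on CD14 and CD45, per the labels' protocols. Flavopiridol, which blocks transcription, was in the digestion mix. The authors deposited raw counts per gene in 3 tables. Columns of the digested and the CM+FB+MF cardiomyocyte libraries match their group but no one sample, so their numbers only name a library. STAR 2.7.9a, HTSeq 0.11.0, DESeq2, R 4.3.2 and the build hg19 are named in the submitters' processing notes. The use of strand in counting was not given in the sources used here, so reads of a gene and of an overlapping antisense gene may not be told apart. The deposited normalized tables were not used.

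Counts were tested with edgeR 4.0.16 in R 4.3.3 (TMM normalization, filterByExpr, two-sided quasi-likelihood F test, Benjamini-Hochberg adjustment over all genes at 0.05). Each table was fitted with all its groups (7 comparisons). The 17919 genes shared by both macrophage tables were fitted over 18 libraries for 3 Biowire against digested comparisons and 3 interactions, 13 comparisons in all. Fold changes are log2 values ± SE with 95% intervals. A floor of 3 counts was used for groups at 0, and pooled ratios carry exact 95% counting intervals. All 8 genes are named in every comparison, and from each other list the 2 genes with the smallest p in a comparison may be named. The 3 genes nearest in pattern were taken for members with a mean of at least 5 CPM. Some genes that this rule takes are not named in the text. The members and the 12 other gene lists were chosen with earlier results of these data known. The test scripts were tested on simulated data. Chi-square per degree of freedom between libraries of a group was 2.48 to 40.4, above sampling noise, so no library was taken for a duplicate. The alternatives tried were RLE size factors, DESeq2 1.42.0, no low-count filter, fits of the compared groups alone, a replicate block (Biowire macrophages) and leaving out each library. Promoter windows come from RefSeq, GRCh38.p14, a build other than that of the counts.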

Additional observations from a re-analysis of the deposited data

Results flagged for a closer look

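In 5 cases a single library stood apart from the other 3 of its cardiomyocyte group by Dixon's test at 95%, which flags about 1 in 20 groups by chance. That rate does not apply to LYVE1, TIMD4 and FOLR2. With 0 in the other 3 libraries their ratio is 1 whatever the remaining count, so these flags carry no information. LYVE1 was 0.555 CPM in CM+FB+MF library 4 and 0 in the other 3. MRC1 was 4.05 CPM in the same library, against 0.783 to 0.937 in the others. TIMD4 was 0.177 CPM and FOLR2 0.0354 CPM in CM+FB replicate 3, with 0 in the other 3 libraries for each. CD163L1 was 2.40 CPM in CM+FB replicate 1, below 3.46 to 3.64 in the others.

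The effect of tissue makeup differed between Biowire and digested macrophages by the interaction test (edgeR adjusted p under 0.05, log2 difference of effects, n = 3 per group) for 17 gene and comparison pairs. For FB+MF against MF these were LYVE1 (3.40), STAB1 (3.79), MRC1 (0.69) and CD163 (1.26). For CM+FB+MF against MF they were LYVE1 (6.60), FOLR2 (1.22), STAB1 (7.15), MRC1 (1.61), CD163 (1.15), CD163L1 (3.43) and SEPP1 (-0.70). For CM+FB+MF against FB+MF they were LYVE1 (3.20), FOLR2 (1.04), STAB1 (3.36), MRC1 (0.93), CD163L1 (3.23) and SEPP1 (-0.61), the last lost without any of 8 single libraries (adjusted p 0.0505 to 0.142).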

How the results depend on the processing

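All 423 member fold changes repeated with DESeq2, RLE size factors, no filter, only the compared groups or the replicate block kept their direction where called and their side of the threshold. The block was run on the Biowire macrophages, where it was not settled whether equal numbers pair the samples. Deviations from group means correlated at 0.00311 to 0.229 in the 9 same-numbered pairs (median 0.0720, 2 above 0.1). In the 18 pairs with different numbers they correlated at -0.193 to 0.120 (median -0.0651, 1 above 0.1). With the block 4, 7 and 6 members were called in FB+MF against MF, CM+FB+MF against MF and CM+FB+MF against FB+MF. No paired analysis was possible because the digested and the CM+FB+MF cardiomyocyte columns carry no sample's number, so the block was not run in the digested, cardiomyocyte and joint comparisons. Of 1336 fold changes with a library left out, 1306 stayed, 27 lost the threshold, 3 gained it and 0 reversed. The members called then ranged from 3 to 4 in Biowire FB+MF against MF, 5 to 6 in CM+FB+MF against FB+MF, 0 to 1 in digested CM+FB+MF against MF, 4 to 5 in cardiomyocytes, 7 to 8 in MF and 5 to 7 in CM+FB+MF Biowire against digested, and for the interactions 4 to 5, 6 to 7 and 5 to 6. TIMD4 passed the FB+MF against MF interaction without Biowire FB+MF replicate 3 (-2.06, adjusted p = 0.0421). SEPP1 lost the CM+FB+MF against MF interaction without Biowire CM+FB+MF replicate 2 (-0.61, adjusted p = 0.0534) or digested CM+FB+MF library 2 (-0.51, 0.0648), and the CM+FB+MF against FB+MF interaction without any of 8 single libraries (adjusted p 0.0505 to 0.142). In cardiomyocytes 5 members were called by DESeq2 and with no filter, where a gene below the filter is tested. Over all genes, calls in Biowire FB+MF against MF fell to 549 when FB+MF replicate 2 and to 553 when MF replicate 3 was left out (860 with all). In digested CM+FB+MF against FB+MF they were 53 with no filter, 49 by DESeq2 and 19 to 72 with a library left out (31 with all), and in digested FB+MF against MF 99 to 309 (207 with all). The cause was not tested. A sum of MRC1 with its second hg19 copy was planned and could not be run, as that copy has no row. Depth limits LYVE1 in Biowire MF (23 counts), TIMD4 everywhere and LYVE1, TIMD4 and FOLR2 in cardiomyocytes.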
